A study of Mus musculus with 26 samples.

Results

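The comparison described here is that of striata from YAC128 mice of 18 months with striata from wild-type (WT) mice of the same age. It was chosen by the age and genotype in the sample titles and rests on 8 of the 26 arrays of the series, 5 of YAC128 and 3 of WT, with the other arrays at 6 and 12 months. YAC128 mice hold a yeast artificial chromosome with full-length human HTT, whose CAG repeat is expanded, in addition to the mouse's own Htt genes, and serve as a model of Huntington's disease. The YAC128 animals were hemizygous, both genotypes were on a C57BL6/J background, and both sexes were used. The YAC128 arrays are those of females F1 and F2 and of males M1, M2 and M3, and the WT arrays are those of female F1 and males M1 and M2. The transgene is present in every cell, and the RNA came from micro-dissected whole striatum, so no cell type is measured on its own. The sample titles state each age as a number of weeks where the study's methods state the same number of months. Levels are log2 values of Affymetrix mouse gene arrays, and the probeset of the highest mean over all 26 arrays stood for each of 19937 genes. The number of arrays limits the precision, and the labels do not say whether littermates are among the animals.

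The striatum is made up mostly of medium spiny neurons, inhibitory projection neurons that integrate glutamate input from cortex and thalamus with dopamine from the midbrain. Those of the direct pathway carry the D1 dopamine receptor, substance P and dynorphin, and those of the indirect pathway carry the D2 receptor and enkephalin. In Huntington's disease these neurons are lost or lose the RNAs that mark them, and the cells of the indirect pathway are affected early. The defining markers were measured in every array, with mean log2 levels in WT striata of 13.1 for Penk and of 12.0 for Ppp1r1b, a phosphatase inhibitor of these neurons. Xist, which silences the inactive X chromosome, matched the sex labels, with levels of 12.36 to 12.41 in females and 6.18 to 6.58 in males.

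No probeset of 34760 passed an adjusted p of 0.05 in the fit of the 8 arrays (limma, Benjamini-Hochberg), and the smallest adjusted p was 0.483, for Tmc3. At an unadjusted p under 0.05 there were 1619 probesets (4.66%), against the 1738 that chance alone gives, and 710 genes, which is 3.56% of those tested. Of these genes, 320 (1.61%) had higher and 390 (1.96%) had lower values in YAC128 striata. The YAC128 arrays all lay above the WT arrays for 341 genes (1.71%) and all below them for 344 (1.73%). A second scaling of the arrays by quantiles turned the balance, with 484 genes higher and 358 lower. When the spread between arrays was estimated from all 26 arrays in a fit of 6 group means, Tmc3 and Acy3 passed, with adjusted p of 0.000803 and 0.0270 (limma), both had higher values in YAC128, and 1245 genes (6.24%) had an unadjusted p under 0.05. The genes below are therefore described by their values, and words such as higher and lower stand for the measured means.

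**Figure D1:**
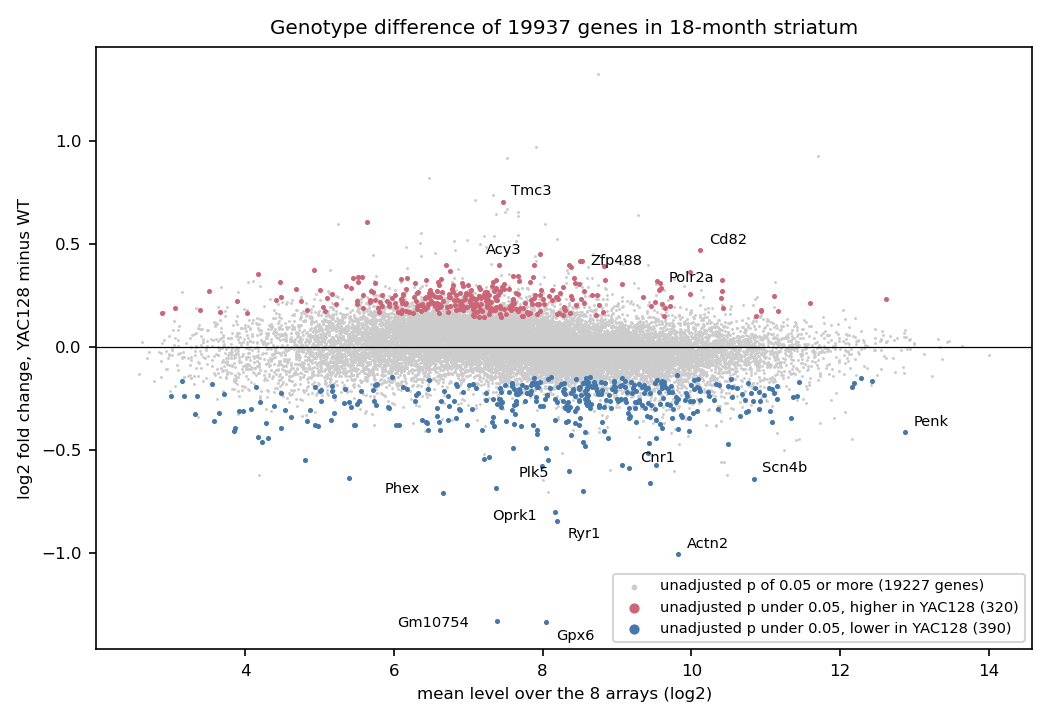
Log2 fold change of YAC128 over WT (vertical axis) against the mean log2 level over the 8 arrays (horizontal axis) for 19937 genes of 18-month striatum, 1 point per gene. Coloured points are the 320 genes with higher and the 390 genes with lower values in YAC128 at an unadjusted p under 0.05. Gpx6 and Gm10754 lie lowest among the coloured genes and Tmc3 lies highest.

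2 arrays stood apart in the neuron markers, and they bear on much of what follows. The mean log2 level of 36 medium spiny neuron genes was 9.71 in YAC128 M2, against 10.41 to 10.49 in the other YAC128 arrays and 10.04 to 10.99 in the 18 arrays of 6 and 12 months. It was 10.34 in WT M2, against 10.78 in WT F1 and 10.84 in WT M1. The same arrays had the highest mean of 15 genes of thalamus, septum and hypothalamus, 8.63 in YAC128 M2 and 8.86 in WT M2, against 7.58 to 8.34 in the other arrays of this age. Slc17a6, a vesicular glutamate transporter of thalamic neurons, was at 9.82 in YAC128 M2 and 9.76 in WT M2 and between 6.61 and 8.93 elsewhere. How the tissue was cut was not tested. Since these arrays were singled out by their low neuron markers, leaving them out also narrows the spread of those markers within each genotype, and counts without both M2 arrays are descriptions that depend on that choice. Without both M2 arrays 1754 genes (8.80%) had an unadjusted p under 0.05, 774 (3.88%) higher and 980 (4.92%) lower, and none passed the adjusted threshold, with the smallest adjusted p at 0.0725. Without WT M2 alone there were 1973 such genes (9.90%), 4.36% higher and 5.53% lower, and without YAC128 M2 alone there were 598 (3.00%), 1.40% higher and 1.60% lower. There were 347 without WT M1 and 421 without WT F1.

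Gpx6 and the predicted gene Gm10754 had the most negative log2 fold changes. Gpx6, a glutathione peroxidase, had log2 levels of 9.20, 9.15 and 8.27 in WT F1, M1 and M2, and of 7.74, 7.99, 7.63, 6.49 and 7.85 in YAC128 F1, F2, M1, M2 and M3. The highest YAC128 array lay below the lowest WT array, and YAC128 M2 lay more than 1 unit below every other array. The log2 fold change was -1.33 ± 0.35 (SE), a mean level 2.52-fold higher in WT, with an unadjusted p of 0.00377 and an adjusted p of 0.934 (limma).

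Actn2 encodes an alpha-actinin that ties actin filaments to glutamate receptors in dendritic spines. Its levels were 10.60, 10.68 and 10.07 in the WT arrays and 9.70, 9.58, 9.51, 8.78 and 9.66 in the YAC128 arrays, in the same order. The groups did not overlap, and the M2 array was the lowest of each group. The log2 fold change was -1.005 ± 0.223, or a 2.01-fold higher mean in WT. Ryr1, a calcium release channel of the endoplasmic reticulum, was at 8.85, 8.92 and 8.40 in WT and at 7.93, 8.04, 7.97, 7.44 and 8.02 in YAC128, a log2 fold change of -0.85 ± 0.16. Here too M2 was lowest in both genotypes without any overlap. Without both M2 arrays the log2 fold changes of Actn2 and Ryr1 were -1.03 and -0.90, and each had an adjusted p of 0.0725 (limma). Both genes belong to the neuron list by which the M2 arrays were singled out, so that these p values depend on that choice and are no independent evidence.

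Oprk1, the kappa opioid receptor, which binds dynorphin, had the smallest unadjusted p among genes with lower values. Its levels were 8.71, 8.79 and 8.50 in WT and 8.05, 7.78, 7.85, 7.52 and 8.13 in YAC128, with no overlap. The log2 fold change was -0.80 ± 0.14, with an unadjusted p of 0.000255 and an adjusted p of 0.886 (limma). Phex, an X-linked endopeptidase known from phosphate metabolism, was at 7.19, 7.24 and 6.88 in WT and at 6.68, 6.42, 6.43, 6.11 and 6.35 in YAC128, a log2 fold change of -0.71 ± 0.13. All of its YAC128 arrays, of both sexes, lay below all WT arrays. Plk5, a polo-like kinase of differentiated neurons, had a log2 fold change of -0.60 ± 0.14 and Cnr1, the CB1 cannabinoid receptor, one of -0.59 ± 0.16, and neither overlapped between genotypes. In Cnr1, YAC128 M2 was at 8.49 and the other YAC128 arrays at 9.01 to 9.13, against 9.23 in WT M2 and 9.66 and 9.70 in WT F1 and M1.

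Further genes of lower value had other known roles. Rpe65, an enzyme of retinoid metabolism, had a log2 fold change of -0.68 ± 0.19, and Sec14l3, a lipid-binding protein, one of -0.53 ± 0.14. Bank1, an adaptor of B-cell signalling, had one of -0.36 ± 0.08, and Dusp14, a phosphatase of MAP kinases, one of -0.34 ± 0.07. Msl1, a subunit of a histone acetyltransferase complex, had one of -0.30 ± 0.07. None of these overlapped between genotypes. Dgat2l6, of an acyltransferase family, was lower by 0.36 ± 0.09 in the same manner. Gm10754 and Gm19410, predicted genes with no known role, had log2 fold changes of -1.33 ± 0.36 and -0.58 ± 0.12, and the small RNA gene Scarna8 one of -0.36 ± 0.07. The small nucleolar RNA Snord14e, by contrast, was at 8.21 in the WT female and 9.38 and 9.35 in the WT males, so that its log2 fold change of -0.70 ± 0.26 rests on the males, and its YAC128 values of 7.92 to 8.55 overlapped with WT.

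The gene of the smallest p overall had higher values in YAC128. Tmc3, a transmembrane channel-like protein, was at 7.00, 6.97 and 7.09 in WT and at 7.55, 7.82, 7.62, 7.82 and 7.82 in YAC128. The WT arrays lay within 0.12 units of each other and the YAC128 arrays all lay above them. The log2 fold change was 0.71 ± 0.09, a 1.63-fold higher mean, and M2 was not apart from the other arrays in either genotype. Acy3, an aminoacylase that removes acetyl groups from mercapturic acids, was at 7.65, 7.70 and 7.71 in WT and at 7.92, 8.25, 8.19, 8.18 and 8.13 in YAC128, a log2 fold change of 0.45 ± 0.08. Zfp488, a zinc finger factor that promotes the differentiation of oligodendrocytes, was at 8.28, 8.21 and 8.22 in WT and at 8.73, 8.60, 8.76, 8.56 and 8.63 in YAC128. It also showed no overlap, with a log2 fold change of 0.42 ± 0.07 and an adjusted p of 0.869 (limma).

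Cd82, a tetraspanin of the cell surface, had a log2 fold change of 0.47 ± 0.10, and Smoc1, a secreted calcium-binding protein of the matrix, one of 0.40 ± 0.09. Polr2a, the largest subunit of RNA polymerase II, had WT levels of 9.44, 9.41 and 9.35 and YAC128 levels of 9.84, 9.69, 9.62, 9.64 and 9.62, a log2 fold change of 0.28 ± 0.07. The transcription factor Onecut1 had one of 0.30 ± 0.08, the brain splicing factor Rbm11 one of 0.28 ± 0.07, and the histone gene H2bc1 one of 0.28 ± 0.07. Nfe2l3, a transcription factor related to the regulators of the oxidative stress response, had one of 0.29 ± 0.08. None of these 7 genes overlapped between genotypes. Slc4a2, an anion exchanger that the choroid plexus expresses, was at 8.86 in YAC128 F1 and 9.08 in YAC128 M2 and at 8.44 to 8.59 in the other YAC128 arrays, against 8.20 to 8.34 in WT. The choroid plexus genes were high in the same pair of arrays, as described further on, and their part in the value of Slc4a2 was not tested.

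**Figure D2:**
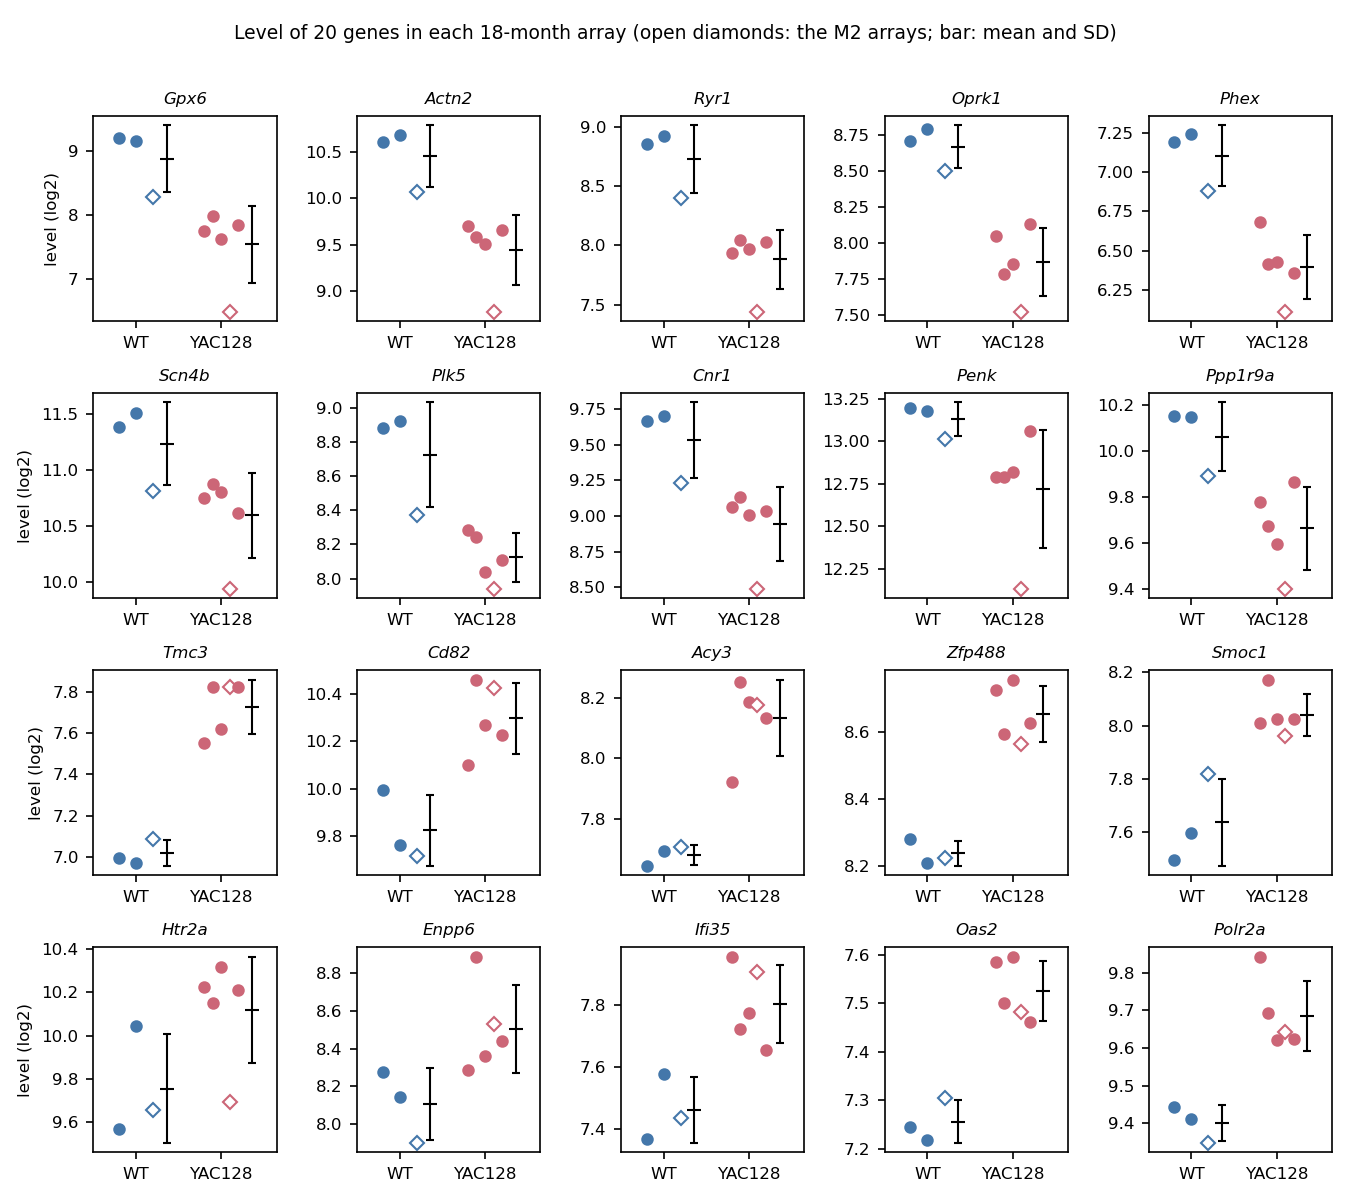
Log2 level (vertical axes, a separate scale for each gene) of 20 genes in the 3 WT and 5 YAC128 arrays of 18 months, 1 point per array with open diamonds for the M2 arrays, and the mean with the SD beside the points. The upper 10 genes have lower and the lower 10 have higher means in YAC128. In Gpx6, Actn2, Ryr1, Scn4b and Cnr1 the M2 diamond is the lowest point of each genotype, while in Tmc3, Acy3, Zfp488 and Polr2a the genotypes are apart and no diamond lies far from the other points of its genotype.

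Of 38 genes that mark medium spiny neurons 36 were measured, and 34 of them had lower means in YAC128, against 48.8% of all genes. The median log2 fold change was -0.31, against 0.00 over all genes. 5 members (13.9%, against 1.96% of all genes) had lower values at an unadjusted p under 0.05, namely Actn2, Ryr1, Cnr1, Scn4b and Penk. None had higher values at that p, against 1.61% of all genes. Scn4b, a sodium channel subunit, had a log2 fold change of -0.64 ± 0.23, and Penk, which encodes enkephalin, one of -0.41 ± 0.18. In both the groups overlapped, since WT M2 at 10.81 for Scn4b lay below YAC128 F2 at 10.87, and YAC128 M3 at 13.06 for Penk lay above WT M2 at 13.02. The means per array of the whole list overlapped for the same reason, at 10.78, 10.84 and 10.34 in WT and at 10.49, 10.48, 10.41, 9.71 and 10.48 in YAC128. In whole tissue, fewer cells of a type and less RNA per cell cannot be told apart.

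The call of the single members depended on the M2 arrays while the sign of the list's median did not. Without both M2 arrays 27 of the 36 had lower values at an unadjusted p under 0.05 and none had higher, where 4.92% of all genes did so in that direction, and the median was -0.30. The M2 arrays were chosen for being lowest in this same list, so that the rise in the count follows in part from the choice and is no independent evidence. The members then included Adcy5, the adenylyl cyclase of these neurons, at -0.51, Drd2 at -0.39, Rgs9, which speeds the end of G-protein signals, at -0.41, Pde10a at -0.36, Ppp1r1b at -0.34 and Drd1 at -0.27. Without YAC128 M2 alone 7 members reached that p, all lower, with a median of -0.17, where 1.60% of all genes were lower. Without WT M2 alone 12 did, all lower, with a median of -0.46, where 5.53% of all genes were lower.

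The markers of the indirect pathway had the lower medians. All 5 that were measured (Drd2, Penk, Gpr6, Gpr52 and Sp9) had lower means in YAC128, with a median log2 fold change of -0.45, and 1 of them, Penk, had an unadjusted p under 0.05. Drd2 was at 11.79, 11.85 and 11.42 in WT and at 11.45, 11.45, 11.35, 10.46 and 11.44 in YAC128, so that WT M2 lay among the YAC128 arrays. Of the 8 markers of the direct pathway 5 had lower and 3 higher means, none had an unadjusted p under 0.05, and the median was -0.03. Tac1, which encodes substance P, was at 11.18, 11.39 and 10.98 in WT and at 11.39, 11.35, 11.27, 10.46 and 11.63 in YAC128, a log2 fold change of 0.04 ± 0.23. Pdyn, which encodes dynorphin, had one of -0.02 ± 0.25. Other members were further from 0. Drd1, the D1 receptor, was at -0.36 ± 0.27 and Chrm4 at -0.415, the lowest of the list, and the highest value was 0.25. The direct pathway median was 0.09 without YAC128 M2 and -0.20 without WT M2, so its sign turned, and that of the indirect pathway was between -0.60 and -0.27 under all 18 alternatives. The difference between the pathways was not tested.

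Striatal interneurons, which are cholinergic or inhibitory cells among the projection neurons, had lower means for 9 of 12 markers, with a median of -0.19. The list mean was 8.61 to 8.69 in WT and 8.37 to 8.53 in YAC128, with no overlap. Without YAC128 M2 the median was -0.11 and no member had an unadjusted p under 0.05, where 1.60% of all genes were lower and 1.40% higher. With all arrays only Th, the enzyme that makes the precursor of dopamine, had an unadjusted p under 0.05, with a log2 fold change of -0.28 ± 0.12 and overlapping groups. Slc5a7 and Chat, a choline transporter and the enzyme of acetylcholine synthesis, had log2 fold changes of -0.42 ± 0.25 and -0.23 ± 0.14. Calb2, which also marks the thalamus, was at 10.14 in WT M2 and between 7.35 and 8.62 in the other arrays. The list mean of WT M2, 8.68, includes that value, and whether the genotypes stay apart without Calb2 was not tested.

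**Figure D3:**
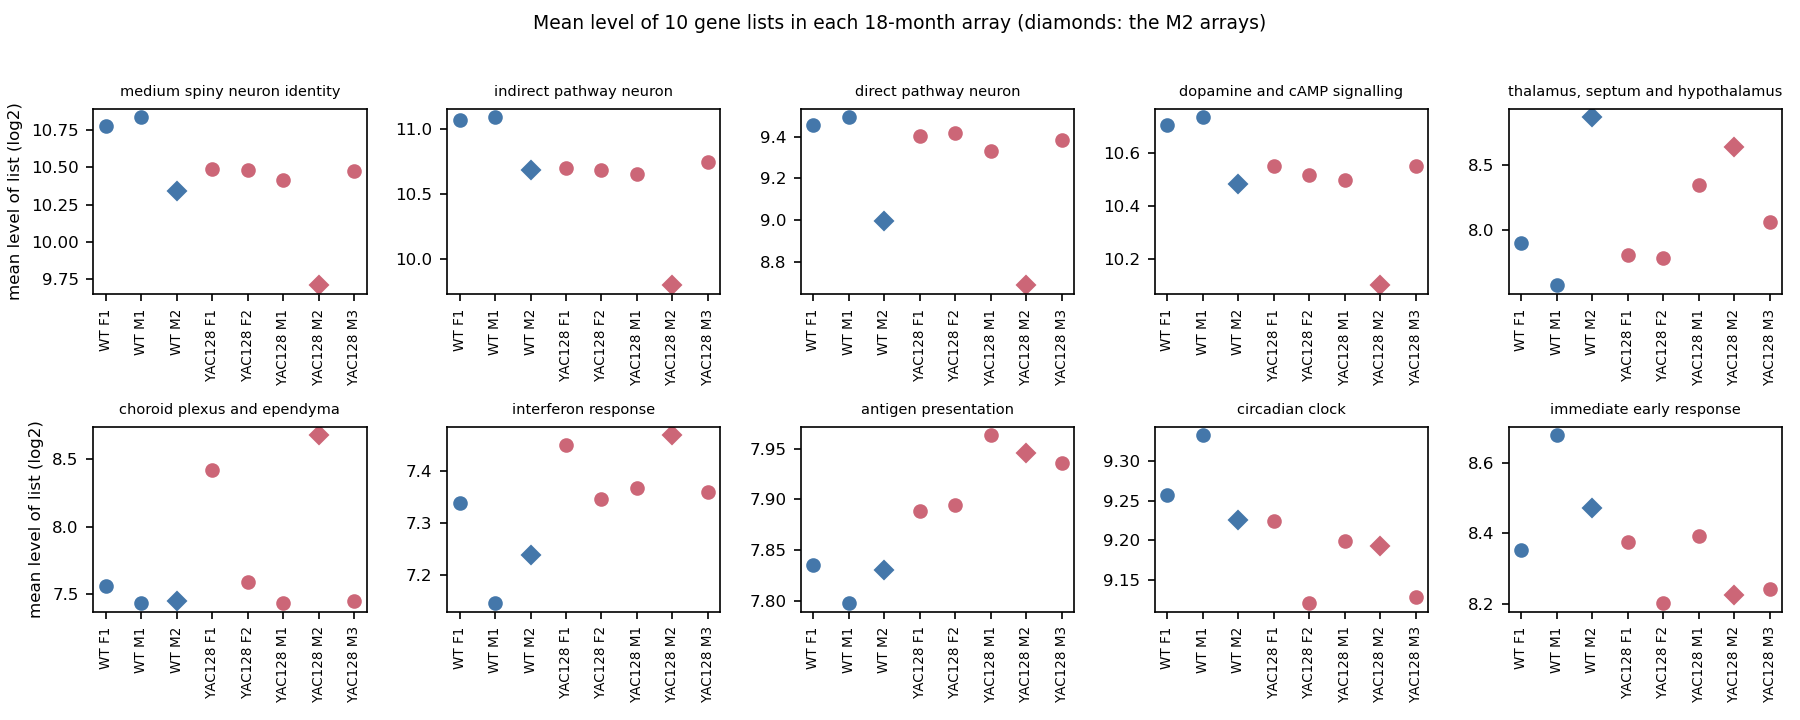
Mean log2 level (vertical axes, a separate scale for each list) of 10 gene lists in each array of 18 months, WT in blue and YAC128 in red, with diamonds for the M2 arrays. The medium spiny neuron mean of YAC128 M2 is 9.71 and of WT M2 10.34, each the lowest of its genotype, and the thalamus mean of the same arrays is the highest. The interferon and antigen presentation means of all YAC128 arrays lie above those of all WT arrays.

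The signalling genes that act on these neurons were mostly lower. Of 26 genes of dopamine and cyclic AMP signalling 23 had lower means, with a median of -0.16, and 1 had an unadjusted p under 0.05, Arpp19, a regulator of protein phosphatase, at -0.31 ± 0.12. With both M2 arrays left out 12 of the 26 reached that p, all lower, where 4.92% of all genes were lower. Of 8 opioid peptides and receptors 7 had lower means. Oprk1 and Penk reached an unadjusted p under 0.05, 25.0% of the list against 1.96% of all genes. The delta receptor Oprd1 had a log2 fold change of -0.23 ± 0.10 and the mu receptor Oprm1 one of -0.10 ± 0.11. The opioid list mean was 8.91, 8.79 and 8.76 in WT and 8.68, 8.66, 8.76, 8.42 and 8.72 in YAC128, so that all YAC128 arrays lay below all WT arrays by a narrow margin.

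At the synapse 25 of 37 scaffold and release genes had lower means, with a median of -0.08, and 6 (16.2%, against 1.96% of all genes) had an unadjusted p under 0.05, all lower. Shank3, a scaffold of the postsynaptic density, was at 9.32, 9.49 and 9.23 in WT and at 9.14, 9.01, 9.13, 9.01 and 8.97 in YAC128, a log2 fold change of -0.29 ± 0.08. Homer1, which links metabotropic glutamate receptors to calcium stores, had one of -0.28 ± 0.08, and Ppp1r9a, an actin-binding scaffold of spines, one of -0.40 ± 0.11. The genotypes did not overlap in any of the 3. In the fit without both M2 arrays 10 members were lower and 1 was higher at an unadjusted p under 0.05. In that fit 4.92% of all genes were lower and 3.88% higher. Among 23 glutamate receptor genes Grm4, a presynaptic metabotropic receptor, and Grid1, a delta receptor, were lower, by log2 fold changes of -0.36 ± 0.11 and -0.26 ± 0.09. They were the only members at an unadjusted p under 0.05, 8.7% of the list against 1.96% of all genes. Calb1, a calcium buffer of the projection neurons, was lower by 0.37 ± 0.13 with no overlap between the genotypes.

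Among channels Kcnh4 and Kcnk13, a voltage-gated and a leak potassium channel, were the 2 of 88 potassium channel genes with an unadjusted p under 0.05, at -0.41 ± 0.15 and -0.23 ± 0.07. The potassium channel median was -0.02. The sodium and calcium channels had 1 of 35 at that p, Scn4b, and a median of -0.05. That single call is 2.86%, and the 2 potassium channels are 2.27%, against 1.96% of all genes that were lower. Over the alternatives the lower calls ranged from 0 to 10 for sodium and calcium channels and from 1 to 12 for potassium channels, with the most in both lists without both M2 arrays, when 2 and 5 members were higher. The lower calls over all genes ranged from 143 to 1103, and without both M2 arrays 4.92% of all genes were lower and 3.88% higher. With all arrays none of 18 GABA receptor genes reached an unadjusted p under 0.05. Among 14 serotonin receptors Htr2a, the 2A receptor, had higher values, at 9.57, 10.04 and 9.65 in WT and at 10.22, 10.15, 10.32, 9.69 and 10.21 in YAC128. YAC128 M2 lay within the WT range and the other YAC128 arrays lay above it. The log2 fold change was 0.36 ± 0.16, with an unadjusted p of 0.0457 and an adjusted p of 0.934 (limma).

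The immediate early genes, which neuronal activity switches on, mostly had lower means. This held for 18 of 19 genes, or 94.7% as against 48.8% of all genes, with a median of -0.19, and 5 had an unadjusted p under 0.05, all lower (26.3%, against 1.96%). Egr1 was at 9.85, 10.17 and 9.86 in WT and at 9.73, 9.67, 9.71, 9.48 and 9.48 in YAC128, a log2 fold change of -0.35 ± 0.10 with no overlap. Egr2, Dusp1, Homer1 and Per1 were the other 4, with log2 fold changes of -0.34 ± 0.12, -0.28 ± 0.12, -0.28 ± 0.08 and -0.27 ± 0.12. Fos and Fosb were near 0, at -0.04 ± 0.10 and -0.04 ± 0.11. The list mean was 8.35, 8.68 and 8.47 in WT and 8.38, 8.20, 8.39, 8.23 and 8.24 in YAC128, so that WT F1 lay below YAC128 F1 and M1. Without WT M1, its highest array, the median was -0.13 and 2 members reached the unadjusted p. Without YAC128 M1 8 members did so, and so did 8 without WT F1. Of all 19937 genes 221 were lower at that p without WT M1, 317 without YAC128 M1 and 196 without WT F1.

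The circadian clock genes, of which Per1 is also an immediate early gene, were lower for 14 of 18, with a median of -0.11. Bhlhe41, a repressor within the clock, was at 9.29, 9.20 and 8.98 in WT and at 8.96, 8.95, 8.84, 8.88 and 8.91 in YAC128, a log2 fold change of -0.25 ± 0.08. Per1, of the period family, was at 9.17, 9.49 and 9.18 in WT and at 9.23, 8.93, 9.13, 8.81 and 8.98 in YAC128, so that YAC128 F1 lay above 2 of the 3 WT arrays. The 2 genes were the only clock members with an unadjusted p under 0.05, 11.1% of the list against 1.96% of all genes that were lower. Without WT M2 6 members reached it, all lower, where 5.53% of all genes were lower. All mice were killed at the same point of the light phase.

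Clock proteins bind the E-box CACGTG, which reads the same on both strands. A promoter window of 300 bases (250 before and 50 after the start of the gene, RefSeq, GRCm38.p6) was on hand for 16 of the 18 clock genes and held an E-box in 5 of them, 31.2%, against 8.09% of 27025 genes. The 5 genes with the E-box all had lower means, with a median of -0.25, and 8 of the 11 without it had lower means, with a median of -0.06. This motif was looked for after the values were seen. The stretches around it are shown for the 2 clock genes at an unadjusted p under 0.05, with the E-box in capitals, for Per1 at chr11:69098738-69098833 on the plus strand and for Bhlhe41 at chr6:145865523-145865618 on the minus strand.
Per1: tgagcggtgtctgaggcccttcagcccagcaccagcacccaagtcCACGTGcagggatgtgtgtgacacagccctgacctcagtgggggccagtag
Bhlhe41: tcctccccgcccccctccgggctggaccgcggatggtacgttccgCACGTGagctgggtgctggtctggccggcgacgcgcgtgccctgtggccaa
A match is a description of the letters and not of a bound site.

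Interferon-stimulated genes were higher in YAC128. These genes are switched on by type I and type II interferons, mainly in defence against viruses, and encode sensors of foreign RNA, enzymes that halt translation and proteins that bind viral RNA. Of 36 measured genes 33 had higher means, against 51.2% of all genes, with a median of 0.16. 9 had higher values at an unadjusted p under 0.05, or 25.0% against 1.61% of all genes, and none had lower values. In 7 of the 36 all YAC128 arrays lay above all WT arrays, as they did in 1.71% of all genes.

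Oas2, a synthetase that activates an RNase on meeting double-stranded RNA, was at 7.24, 7.22 and 7.30 in WT and at 7.59, 7.50, 7.60, 7.48 and 7.46 in YAC128. The log2 fold change was 0.27 ± 0.06, a 1.20-fold higher mean. Ifi35, an interferon-induced regulator of innate signalling, was at 7.37, 7.58 and 7.44 in WT and at 7.96, 7.72, 7.78, 7.91 and 7.65 in YAC128, a log2 fold change of 0.34 ± 0.09. Eif2ak2, a kinase that stops translation on meeting double-stranded RNA, was at 6.64, 6.52 and 6.39 in WT and at 7.09, 6.88, 6.72, 7.04 and 6.70 in YAC128, a log2 fold change of 0.37 ± 0.11. In all of these the lowest YAC128 array lay above the highest WT array.

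Ifit1, which binds foreign RNA ends, had a log2 fold change of 0.40 ± 0.13, with WT levels of 7.38, 7.11 and 7.02 and YAC128 levels of 7.83, 7.57, 7.31, 7.71 and 7.41. YAC128 M1 lay below WT F1. Ifih1, a sensor of viral RNA, Usp18, an inhibitor of the interferon receptor, Gbp3, a guanylate-binding GTPase, Xaf1 and Ifi27l2a had log2 fold changes between 0.19 and 0.28. The values of Mx1 and Stat2, 0.08 ± 0.08 and -0.03 ± 0.07, were near 0, and the lowest value of the list was -0.08, of Cmpk2.

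The mean of the interferon list was 7.34, 7.15 and 7.24 in WT and 7.45, 7.35, 7.37, 7.47 and 7.36 in YAC128. WT F1 came within 0.01 units of YAC128 F2, so that the genotypes are apart by little. YAC128 F1 and M2 had the highest means, and the choroid plexus genes were high in these same arrays, as described further on. Whether the interferon values follow those genes was not tested. Without WT F1 14 members had higher values at an unadjusted p under 0.05 with a median of 0.21, and without WT M1 3 did with a median of 0.09. Without YAC128 F1 5 did, and 6 did without F2, without M2 and without both M2 arrays, with medians of 0.14 to 0.17. In the last of these fits 1 member also had lower values at that p, where 3.88% of all genes were higher and 4.92% lower. Higher values at that p were found in 225 of all 19937 genes without WT F1 and in 126 without WT M1. The same count was 391 without YAC128 F1, 304 without YAC128 F2 and 280 without YAC128 M2. The markers of microglia, which respond to interferon, had lower means for 15 of 19, with a median of -0.07 and list means from 8.53 to 8.89 in YAC128 and from 8.50 to 8.95 in WT. None of them had an unadjusted p under 0.05.

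Antigen presentation, which interferon also induces, was higher for 15 of 16 genes, with a median of 0.11. B2m, the light chain of class I molecules, was at 11.63, 11.31 and 11.43 in WT and at 11.56, 11.66, 11.61, 11.74 and 11.80 in YAC128, and was the only member with an unadjusted p under 0.05, at 0.22 ± 0.09. The class II genes H2-Aa and Cd74 had log2 fold changes of 0.25 ± 0.14 and 0.22 ± 0.12. The list means were 7.84, 7.80 and 7.83 in WT and 7.89, 7.89, 7.96, 7.95 and 7.94 in YAC128, with no overlap. The 17 genes of reactive glia and complement had a median of -0.04 and none at an unadjusted p under 0.05.

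Interferon signals reach genes through factors that bind the interferon-stimulated response element, whose core is a pair of GAAA blocks with any 2 bases between them, searched on both strands. Of 24 list members with a promoter window 12 held this motif, or 50%, against 3.99% of 27025 genes. The 12 with it had a median log2 fold change of 0.18 and the 12 without it one of 0.10. The stretches are shown for the members at an unadjusted p under 0.05 in which the motif lies before the start, with the motif in capitals, for Ifit1 at chr19:34640740-34640839 and for Gbp3 at chr3:142559954-142560043, both on the plus strand and both with the motif on the other strand, so that the blocks read TTTC.
Ifit1: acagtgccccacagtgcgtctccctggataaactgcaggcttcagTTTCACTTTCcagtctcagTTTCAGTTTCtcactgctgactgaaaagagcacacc
Gbp3: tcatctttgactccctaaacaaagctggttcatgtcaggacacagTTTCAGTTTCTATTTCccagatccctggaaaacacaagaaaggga
Each stretch holds 2 matches, which overlap in Gbp3. In the medium spiny neuron list the cyclic AMP response element TGACGTCA, searched on either strand, was found in 1 of 31 windows, 3.23%, against 2.03% of all genes, and among the immediate early genes in 2 of 15.

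Of 20 astrocyte genes 17 had lower means, with a median of -0.09, and 4 (20%, against 1.96% of all genes) had lower values at an unadjusted p under 0.05. Slc4a4, a bicarbonate transporter, was at 11.29, 11.34 and 11.28 in WT and at 11.05, 11.00, 11.11, 10.88 and 11.22 in YAC128, a log2 fold change of -0.25 ± 0.08. Gja1, the gap junction protein connexin 43, had one of -0.21 ± 0.07, Slc1a2, which clears glutamate from the synapse, one of -0.17 ± 0.07, and Glul, which turns glutamate to glutamine, one of -0.15 ± 0.06. The genotypes did not overlap in these 4. Without both M2 arrays 1 member had lower values at that p, where 4.92% of all genes were lower. In males none did, where 143 of all 19937 genes were lower. Gfap and Aqp4 were at -0.12 ± 0.24 and 0.01 ± 0.14, and S100b, which oligodendrocytes also express, was at 0.31 ± 0.14.

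Of 29 genes of mature oligodendrocytes and myelin 19 had higher means, with a median of 0.09, and with members of both signs. Enpp6, an enzyme of newly myelinating cells, was at 8.28, 8.14 and 7.90 in WT and at 8.29, 8.89, 8.36, 8.53 and 8.44 in YAC128, a log2 fold change of 0.40 ± 0.14. Anln, Apod and Olig1 were also higher at an unadjusted p under 0.05, by 0.29 ± 0.11, 0.23 ± 0.09 and 0.21 ± 0.09. Car2, a carbonic anhydrase, and Tspan2, a tetraspanin of myelin, were lower, by -0.30 ± 0.10 and -0.26 ± 0.10, with no overlap. The higher calls were 13.8% and the lower calls 6.9% of the list, against 1.61% and 1.96% of all genes. The structural genes Mbp, Mog and Mag were at 0.04 ± 0.09, 0.15 ± 0.09 and 0.23 ± 0.13. The calls depended on single arrays. There were 7 higher and 1 lower without YAC128 F1 (median 0.14), 1 higher and 4 lower without YAC128 F2 (median 0.04), 6 higher and none lower without WT F1 (median 0.15), and 1 higher and 3 lower without WT M2 (median 0.04). In these fits in turn 391, 304, 225 and 870 of all 19937 genes were higher, and 475, 338, 196 and 1103 were lower. Just 1 member was higher in each of the fits without YAC128 M2, without YAC128 M3 and without WT M1, and none without both M2 arrays. Of all 19937 genes 280, 271, 126 and 774 in turn were higher in those fits. The precursors of oligodendrocytes (12 genes, median -0.05) and the endothelial and mural cells (19 genes, median -0.01) had no member at that p.

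Choroid plexus and ependymal genes, which come from the lining of the ventricle, had the largest positive median, 0.44, with 11 of 13 higher, but none had an unadjusted p under 0.05. Ttr, the thyroid hormone carrier of the choroid plexus, was at 11.70, 10.98 and 10.69 in WT and at 13.41, 11.90, 10.32, 13.62 and 11.02 in YAC128. YAC128 F1 and M2 were far above the others and YAC128 M1 was the lowest of all. Kcnj13, a potassium channel of the choroid plexus, had the largest positive log2 fold change of all genes, 1.32 ± 0.93, with 11.11 and 11.43 in these arrays and 7.38 to 8.36 in the others. The choroid list mean was 8.42 and 8.68 in these 2 arrays and 7.43 to 7.59 in the other 6. Without YAC128 M2 the median was 0.25. Of 11 genes of cortical projection neurons 10 had higher means, with a median of 0.07, again with YAC128 M2 the highest at a list mean of 9.24.

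**Figure D4:**
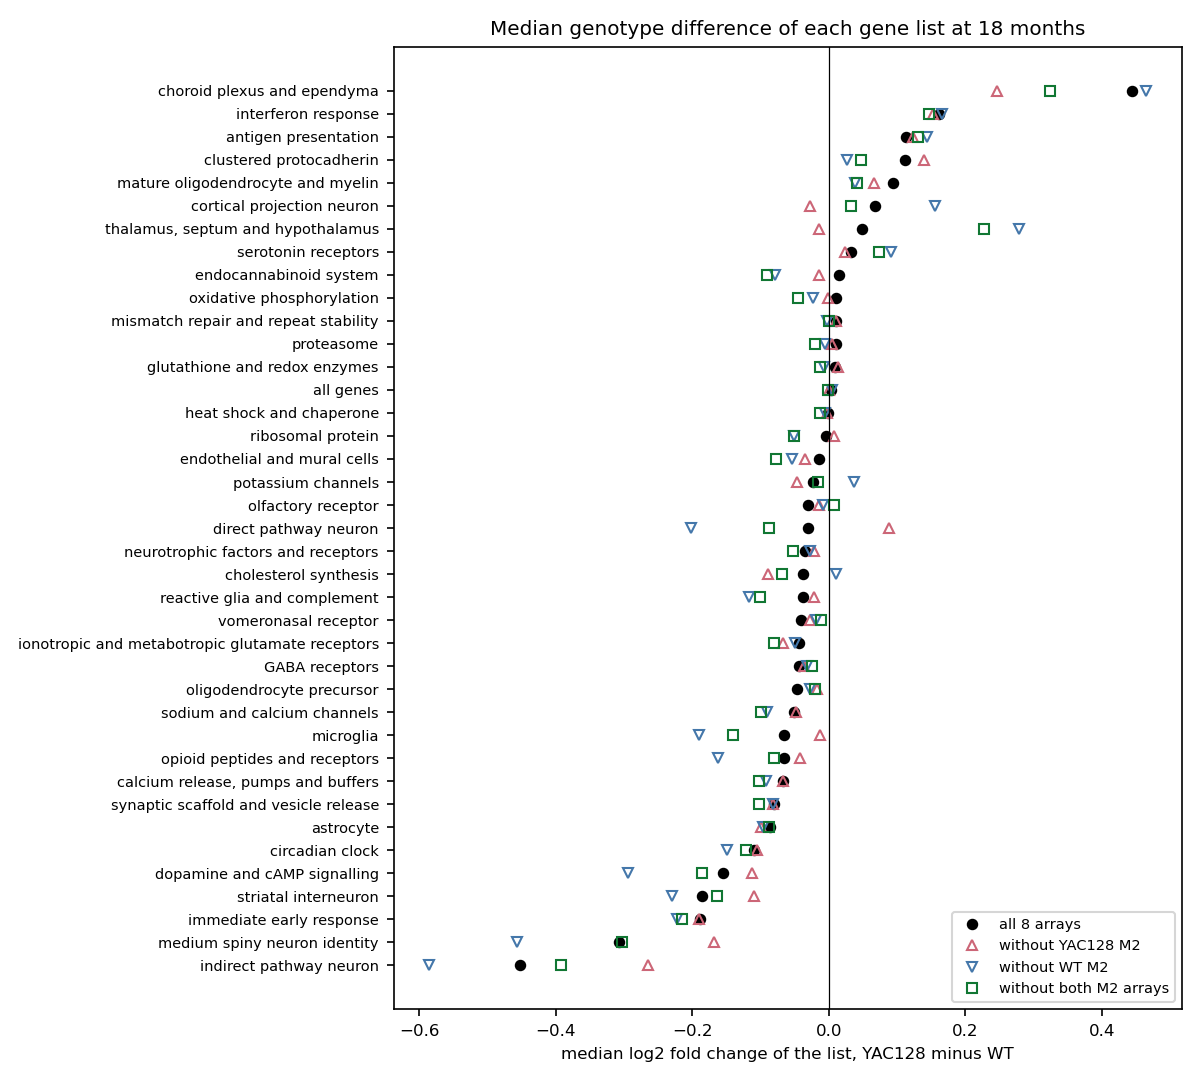
Median log2 fold change of YAC128 over WT (horizontal axis) for each gene list and for all genes, with all 8 arrays (filled circles) and without YAC128 M2, without WT M2 or without both (open symbols). The indirect pathway list lies lowest under each of these, between -0.59 and -0.27, the medium spiny neuron list lies between -0.46 and -0.17, the interferon list stays between 0.15 and 0.17, and the direct pathway list lies on either side of 0.

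Clustered protocadherins are adhesion proteins that give each neuron its identity, and the list held the genes of the beta cluster (Pcdhb) alone. These were higher for 18 of 22, with a median of 0.11. Pcdhb2, Pcdhb3 and Pcdhb4 had log2 fold changes of 0.34 ± 0.09, 0.32 ± 0.09 and 0.23 ± 0.08 and no overlap. They were the only members at an unadjusted p under 0.05, 13.6% of the list against 1.61% of all genes that were higher. Pcdhb2 was at 7.61, 7.68 and 7.67 in WT and at 7.95, 8.07, 7.89, 8.20 and 7.85 in YAC128. The median was 0.03 without WT M2, whose list mean of 7.59 was the lowest, against 7.74 to 8.03 in the other arrays, while these 3 genes kept their sign. In males none of the 22 had an unadjusted p under 0.05, where 158 of all 19937 genes were higher and 143 lower. The members lie in 1 gene cluster and have similar sequences, and whether their probesets are separate was not tested.

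Olfactory receptor genes, which sensory neurons of the nose express, had a list mean of 5.61 in WT and 5.58 in YAC128. Of 1015 genes 603 had lower means, and 32 had lower and 7 higher values at an unadjusted p under 0.05. These are 59.4%, 3.15% and 0.69% of the list, against 48.8%, 1.96% and 1.61% of all genes. After a second quantile scaling there were 23 lower and 22 higher, and without YAC128 F1, whose list mean of 5.47 was the lowest, 21 lower and 19 higher. Of all 19937 genes 358 were lower and 484 higher after that scaling, and 475 and 391 without YAC128 F1. Of 165 vomeronasal receptor genes 102 (61.8%) had lower means, and 8 (4.85%) were lower and 1 (0.61%) was higher at that p. What their probesets detect in the striatum was not tested.

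Mir154, a microRNA gene of the imprinted cluster on chromosome 12, was at 7.63, 7.68 and 7.43 in WT and at 7.29, 7.26, 7.07, 7.22 and 7.16 in YAC128. The groups did not overlap, and the log2 fold change was -0.38 ± 0.08, with an unadjusted p of 0.00131. Such an array labels longer RNA, so the probeset need not follow the mature forms, which are shown with the seed (bases 2 to 8) in capitals (RefSeq, GRCm38.p6, plus strand, chr12:109738438-109738459 and chr12:109738474-109738495).
mmu-miR-154-5p: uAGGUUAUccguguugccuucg
mmu-miR-154-3p: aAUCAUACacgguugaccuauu
The 2 arms have different seeds. The genotype difference of Mir154 at 18 months was -0.44 ± 0.13 away from the mean of those at 6 and 12 months, a description of a gene named for its value at 18 months.

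Several machineries that every cell uses had medians near 0. The oxidative phosphorylation genes (78), the proteasome (39), the heat shock and chaperone genes (24), the mismatch repair genes (10) that bear on repeat stability, and the ribosomal proteins (61) had medians between -0.0049 and 0.0111. Rpl23a at -0.30 ± 0.09 and Rpl7a at 0.28 ± 0.12 were the only ribosomal genes with an unadjusted p under 0.05, and such genes have processed copies of near-identical sequence, so that these values are uncertain. Cox6b2, a subunit of cytochrome oxidase, was at 0.22 ± 0.08. Among 24 glutathione and redox genes, whose median was 0.01, Gpx6 was lower and Gpx7 was higher by 0.24 ± 0.09. Cholesterol synthesis (18 genes) had a median of -0.04 and none at an unadjusted p under 0.05. Among 10 neurotrophic factors and receptors Gfra1, a receptor of glial cell line-derived factor, was lower by 0.17 ± 0.06 with no overlap.

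The mouse Htt probeset was at 9.85, 9.87 and 9.71 in WT and at 9.87, 9.82, 9.79, 9.91 and 9.80 in YAC128. It was not shown to detect the human transgene, so it does not check the genotype labels. The difference in means was 0.02, with an exact two-sided permutation p of 0.661 over 56 assignments, where the smallest possible p is 0.0179. Bdnf, the growth factor that cortex supplies to the striatum, differed by 0.05, with an exact two-sided permutation p of 0.554. Grk4, a receptor kinase whose gene lies near Htt, was at 5.24, 5.24 and 5.01 in WT and at 5.64, 5.36, 5.34, 5.65 and 5.32 in YAC128. It did not overlap, and its log2 fold change was 0.30 ± 0.11. Its highest levels were in YAC128 F1 and M2, the arrays in which the choroid plexus genes were high, and the part of those genes was not tested. The log2 fold change of Grk4 was 0.17 without both M2 arrays, and it was 0.05 at 6 months and -0.01 at 12 months.

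The same genes could be read in other animals at the younger ages, where 264 genes (1.32%) at 6 months and 929 (4.66%) at 12 months had an unadjusted p under 0.05. Of the 390 genes with lower values at 18 months 78.5% had lower means at 6 months and 85.1% at 12 months, where 45.5% and 58.3% of all genes had lower means. Of the 320 genes with higher values 75.3% had the same sign at 6 months and 55.0% at 12 months. Of all 19937 genes 10851 had higher means at 6 months and 8307 at 12 months. In all 37 of the 19937 genes had an unadjusted p under 0.05 with the same sign at the 3 ages, 29 lower and 8 higher. Among the lower ones were Actn2, Ryr1, Phex, Plk5, Scn4b and Cnr1, and also Il33, a cytokine that oligodendrocytes and astrocytes hold in the nucleus, Bmp2, a growth factor, and Pmp22, a membrane protein of myelin, with log2 fold changes at 18 months of -0.41, -0.35 and -0.26. The higher ones included Tmc3, Acy3, Htr2a, Enpp6 and Anln.

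The log2 fold changes of Gpx6 at the 3 ages in order were -0.25, -0.54 and -1.33, and those of Oprk1 were -0.27, -0.35 and -0.80. By comparison, Phex had -0.73, -0.65 and -0.71, and Tmc3 had 0.50, 0.43 and 0.71. The genotype difference at 18 months minus the mean of the 2 younger ages was -0.94 ± 0.33 for Gpx6 and -0.49 ± 0.16 for Oprk1, which is a description, since both genes were named for their values at 18 months. No gene differed between 18 months and the younger ages at an adjusted p of 0.05 (limma), and 422 genes (2.12%) did at an unadjusted p under 0.05. The interferon genes Eif2ak2 and Oas2 had log2 fold changes of 0.01 and 0.05 at 6 months and of -0.02 and 0.08 at 12 months, and the interferon list had medians of 0.06 and 0.08. The immediate early list had medians of 0.03 and -0.02. The study states that samples of equal age shared a chip, and does not say whether this means a type of array or a run. The labels name no run or batch, so age and any such grouping cannot be told apart in these comparisons.

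**Figure D5:**
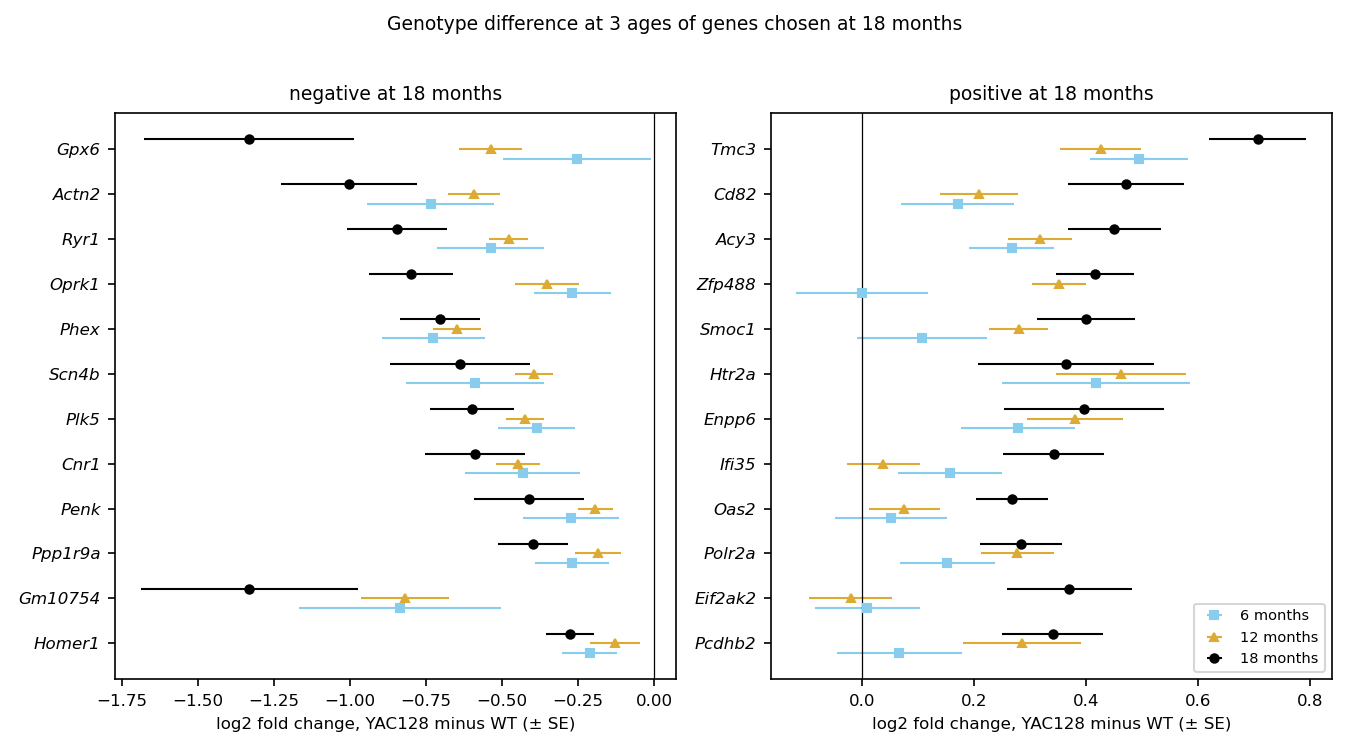
Log2 fold change of YAC128 over WT with its SE (horizontal axes) at 6, 12 and 18 months for genes named at 18 months, 12 with negative and 12 with positive values at that age. Phex and Cnr1 have like values at the 3 ages, Gpx6 and Oprk1 have their lowest at 18 months, and Eif2ak2, Oas2 and Ifi35 have values above 0.2 at 18 months only.

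The genotype difference did not differ between females and males for any probeset at an adjusted p of 0.05 (limma), and it did for 168 genes (0.843%) at an unadjusted p under 0.05. With 1 WT female the test has little precision. Snord14e, which the WT female had at a low level, had a difference between the sexes of 1.32, which was looked at after its values were seen. In the males alone 301 genes had an unadjusted p under 0.05.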

How the data were processed

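Striatal RNA was hybridised to Affymetrix Mouse Gene 1.0 ST arrays. The deposited values are on a log2 scale and were computed by the authors with robust multichip average (affy package, version not given in the sources used here), which corrects background, quantile normalizes arrays and summarises probesets. Such values understate the changes of dim genes. They were used as deposited. Of 34760 probesets 21640 carry 1 gene symbol, and no pair of the 26 arrays was identical. Models were fitted to the 8 arrays of 18 months with limma 3.58.1 in R 4.3.3 (lmFit and eBayes, genotype only), and Benjamini-Hochberg adjustment ran across the whole table of probesets, with calls at 0.05. Nothing was fitted to a list alone. The fits were tested on simulated data. Named genes are the 12 of smallest p and, among genes at an unadjusted p under 0.05, the 8 of largest fold in each direction, up to 3 members of each list at an unadjusted p under 0.05, and genes that the study discusses, some of which it chose on these arrays. Other list members were named for their role after their values were seen, as were Il33, Bmp2, Pmp22 and Kcnj13. The members and lists were chosen with earlier results of these data known. The alternatives were another estimate of spread, scaling, filters, weights, sex, a replicate block and single arrays left out, and males only and both M2 arrays left out were added after seeing the data.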

Additional observations from a re-analysis of the deposited data

Results flagged for a closer look

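Among 114 sets of 5 YAC128 values that were examined, 14 held 1 array whose gap to the nearest other was large for the range, where chance gives about 1 in 20. The array was M2 in 12 of the 14. M2 was lowest in the means of the medium spiny neuron list (9.71), the direct pathway list (8.69), the indirect pathway list (9.79) and the dopamine and cyclic AMP list (10.10), and it was highest in the cholesterol synthesis list (8.94). It was also lowest in Ryr1 (7.44), Actn2 (8.78), Gpx6 (6.49), Cnr1 (8.49), Calb1 (10.53), Scn4b (9.93) and Htr2a (9.69). YAC128 M1 was far above the others in Onecut1 (7.31) and YAC128 M3 in Rpl7a (7.68). The neuron lists share members with each other and with the genes named here, so that the flags of M2 are not independent.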

How the results depend on the processing

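At an adjusted p of 0.05 the count of probesets was 0 in all alternatives, leaving out any single array included, except the fit of 26 arrays, where it was 2. The count of genes at an unadjusted p under 0.05, 710 with all arrays, was 1245 in the fit of 26 arrays, 1865 with array weights, 301 in males and 1754 without both M2 arrays, and lay between 347 and 1973 when single arrays were left out. That of probesets, 1619, was 3479 with array weights and 3302 without both M2 arrays, and lay between 1047 and 3653 when single arrays were left out. The cause was not tested. A second quantile scaling gave 900 probesets higher and 896 lower, against 646 and 973, and with sex and number as a replicate block there were 579 and 1395 (1974 in all), and 256 and 477 genes. Deviations from the genotype mean in arrays of the same sex and number correlated by 0.256, -0.12 and 0.206 between the genotypes. With so few arrays these values cannot show whether the numbers pair the animals. Of 76 named genes 74 kept their sign under all 18 alternatives. These 74 are the named genes at an unadjusted p under 0.05, mostly chosen by their values in these arrays. The alternatives use the same arrays again, so a kept sign was likely from the choice and is no independent evidence. Htt turned to -0.0096 with array weights and to -0.0456 without both M2 arrays, and lay between -0.0278 and 0.0557 when single arrays were left out, and Bdnf then lay between -0.0114 and 0.1613. Of 38 lists 33 kept their median within the spread between arrays. Dim genes and the 3 WT arrays limit what can be detected.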
